A study of Mus musculus with 18 samples.

Results

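Expression of 40 cell cycle and replication genes was described in mouse liver, in wild type (WT) mice and in mice without the farnesoid X receptor (FXR, gene Nr1h4), a nuclear receptor that senses bile acids. The genes were chosen by name, as a list of 12 replication genes, 15 mitosis genes, 10 genes of the G1 phase and 3 inhibitors of cyclin-dependent kinases. Each was read from a probe set that the platform annotation assigns to it alone, and of several the brightest on average (18 arrays) was taken. A probe set was found for 39 of the 40, out of 12394 genes measured, and none was named for Ccnb1. There were 3 arrays in each of 6 groups, which were WT, liver Fxr KO and whole body Fxr KO mice, each given vehicle (0 mg/kg) or the synthetic FXR agonist GW4064 (150 mg/kg). All mice were males of 10 to 16 weeks on the C57BL/6J background, and per the labels received 2 doses by oral gavage, with the liver taken 2 hours after the last one. The liver Fxr KO mice carry floxed Fxr alleles and a Cre driven by the albumin promoter, so Fxr is removed where that promoter is or has been active, mainly in hepatocytes. How much Fxr other liver cells keep was not measured. The study's methods describe only the WT mice, with a lower dose given more often and an overnight fast, and which protocol these livers had cannot be told from the values.

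A cell that divides first passes G1, in which D-type cyclins with Cdk4 and Cdk6, and then E-type cyclins with Cdk2, release E2F factors that switch on replication genes. Later, Cdk1 with A-type and B-type cyclins drives mitosis, and the inhibitors p21 (Cdkn1a), p27 (Cdkn1b) and p18 (Cdkn2c) hold the kinases back. Hepatocytes of an adult mouse are mostly quiescent and re-enter the cycle after injury or partial hepatectomy, and FXR and bile acids are known to act on that regrowth in mice.

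The promoters of these genes carried different short motifs, which the choice of members did not use, and a few are printed because they set the gene groups apart. A promoter of 300 bases, from 250 before to 50 after the gene's start (RefSeq, GRCm38.p6), was at hand for 32 of the 40 members, and all motifs were searched on both strands. A gene with several promoters, such as Mcm7, was counted if any of them held the motif. The cell cycle homology region TTTGAA, a motif typical of mitosis genes, was found in 8 of 12 mitosis genes and in 1 of 11 replication genes, against 20.2% of all 27025 genes. The E2F motif, searched as TTTCCCGC or TTTGGCGC, was found in 6 of 11 replication genes, 2 of 6 G1 genes and 0 of 12 mitosis genes, against 1.8% of all genes. The CCAAT box was found in 11 of 12 mitosis genes and 8 of 11 replication genes, against 41.1% of all genes. It was in 23 of the 32 members, so it does not set apart Cks2 and Cdkn1b, which held it and passed a test below. The exact inverted repeat IR-1, which FXR is known to bind, was found for 0 of the 32 members and for 13 of the 27025 genes. Some promoters held a motif more than once, and 1 position is printed. For Ccnb2 it is the TTTGAA that begins at -167 from the start, and another begins at 5. The lines give 30 bases each, 5′ to 3′ on the gene's strand, with the motif or its reverse complement in capitals.
Cdk1, TTTGAA, chr10:69352910-69352939, minus strand: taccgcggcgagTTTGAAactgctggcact
Mki67, TTTGAA, chr7:135716460-135716489, minus strand: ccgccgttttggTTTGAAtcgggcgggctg
Ccnb2, TTTGAA, chr9:70421704-70421733, minus strand: cagggactagaaTTTGAAaataagactgta
Mcm6, E2F, chr1:128359734-128359763, minus strand: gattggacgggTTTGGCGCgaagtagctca
Mcm7, E2F, chr5:138172030-138172059, minus strand: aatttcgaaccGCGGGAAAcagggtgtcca
Cdc25a, E2F, chr9:109875501-109875530, plus strand: ggtgaattccgTTTGGCGCcaactaggaaa
Cks2, CCAAT box, chr13:51645154-51645183, plus strand: gctgaatcgttagCCAATccttactcccgc
Cdkn1b, CCAAT box, chr6:134920353-134920382, plus strand: cccggcgccgagaCCAATggagctcctcct

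The values are log2 expression per probe set, as the authors deposited them after RMA (robust multi-array average), with no detection call, so no gene can be called absent. Nr1h4 was at 8.83 to 9.39 in the 6 WT arrays and at 3.98 to 4.69 in the 12 knockout arrays, so the labels and the targeted gene went together. Of 12394 genes, 24 passed an adjusted p of 0.05 for GW4064 in WT, 109 between liver Fxr KO and WT, and 141 between whole body Fxr KO and WT. Both remaining GW4064 comparisons, in the knockouts, gave 0 genes by limma, with 622 and 775 at an unadjusted p under 0.05. GW4064 replicate 1 of WT and GW4064 replicate 3 of whole body Fxr KO stood apart from the other arrays, with mean correlations to all others of 0.98445 and 0.98383. The hepatocyte markers summed to between 113294 and 128708 on the linear scale in all 18 arrays. Summed stellate cell markers were 1895 to 2486 in WT with vehicle, 891 to 1755 in WT with GW4064 and 2985 to 3207 in whole body Fxr KO with vehicle, and summed endothelial markers were 1448 to 1641, 882 to 1391 and 1780 to 2006 in the same groups. In whole liver, fewer cells of a type and less RNA per cell cannot be told apart.

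None of the 39 genes passed the test for GW4064 in any genotype. In WT, 0 of 39 passed, against 0.194% of all genes, and 9 had an unadjusted p under 0.05, against 12.6%. The replication genes had a median log2 difference of -0.19 between GW4064 and vehicle, with 8 of 12 below 0, the mitosis genes -0.09, with 12 of 14 below 0, and the G1 genes -0.15, with 7 of 10 below 0. The 3 inhibitors were all above 0 with the probe sets used, though second probe sets gave -0.1 for Cdkn1a and -0.03 for Cdkn1b. The median of the inhibitors was 0.30, and that of all genes was 0.00, with 6347 of 12394 below 0. Without GW4064 replicate 1, the array that stood apart, these medians were -0.06 (6 of 12 below 0), -0.02 (8 of 14), -0.04 (5 of 10) and 0.25 (1 of 3). That array held the lowest value of 8 of the 39 genes, 5 of them replication genes, while it held the lowest value of 10.8% of all genes. In WT, 8 of 8 endothelial markers and 7 of 8 stellate markers also had a log2 difference below 0, none past the threshold, and their part in the values of the 39 genes was not tested.

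**Figure D1:**
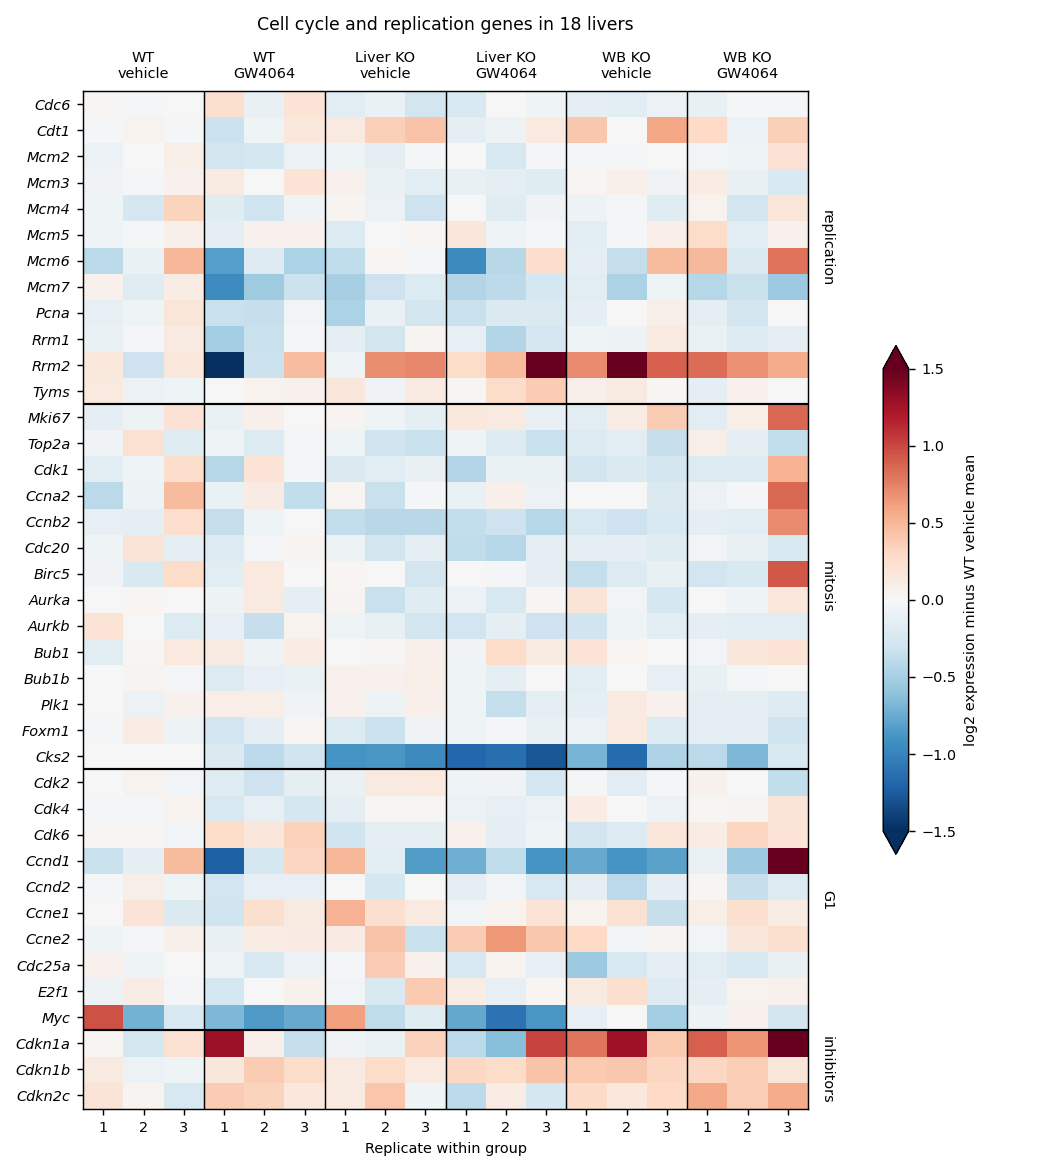
Log2 expression of each of the 39 measured genes (rows, in 4 groups of function) on each of the 18 arrays (columns, by group and replicate), minus the mean of the 3 WT vehicle arrays; colours are cut at 1.5 either way. Cks2 lies below the WT vehicle values in every knockout array. Ccnb2 and Mcm7 do so, by less, in all 6 liver Fxr KO arrays. Ccnd1, Rrm2, Myc and Cdkn1a vary widely within groups.

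Mcm7, a subunit of the helicase that opens DNA for replication, came closest in WT. Its log2 expression was 7.90, 7.65 and 7.94 with vehicle and 6.89, 7.30 and 7.51 with GW4064, so the 2 groups did not overlap. The difference was -0.60 (SE 0.14), with an adjusted p of 0.103. Without GW4064 replicate 1, the array that stood apart, it was -0.43, and without GW4064 replicate 3 it was -0.74, with an adjusted p of 0.0127, out of a range of 0.0127 to 0.426 over 29 alternative settings. A second probe set gave -0.61 (adjusted p = 0.0487 where every probe set was tested on its own), but the other 2 probe sets of Mcm7 gave -0.19 and -0.01. Mcm7 was between 7.33 and 7.62 in the liver Fxr KO arrays with vehicle and between 7.39 and 7.57 with GW4064, and these overlapped.

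The other helicase subunits and the sliding clamp did not pass. Mcm2 was 6.44, 6.53 and 6.62 in WT with vehicle and 6.26, 6.27 and 6.44 with GW4064, which both read 6.44 at their edge and did not overlap before rounding, a difference of -0.21 (adjusted p = 0.345). Pcna, the clamp that holds DNA polymerase on its template, was 9.49, 9.55 and 9.79 with vehicle and 9.28, 9.27 and 9.57 with GW4064, which overlapped. Cdc6, a loader of that helicase, was 3.72, 3.68 and 3.71 in WT with vehicle and 3.94, 3.59 and 3.91 with GW4064, which overlapped too. Rrm2, the regulated subunit of ribonucleotide reductase, which makes DNA precursors, had the widest range of the replication genes in WT. Its values were 7.43, 6.96 and 7.43 with vehicle and 5.11, 6.95 and 7.73 with GW4064, so the difference of -0.68 rested on replicate 1 and was 0.07 without it.

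No mitosis gene passed for GW4064. The 95% interval of the difference lay within 1.5 fold either way for 12 of 14 mitosis genes in WT, for 14 of 14 in liver Fxr KO and for 9 of 14 in whole body Fxr KO. Of these genes, only Cdc20 and Cks2 had a mean above 5.65, the level of a filter on the dimmest 40% of genes. For the dimmer ones a narrow interval is weak evidence of little change. Mki67, the gene of the proliferation marker Ki-67, was 4.09, 4.14 and 4.44 in WT with vehicle and 4.12, 4.30 and 4.23 with GW4064. Top2a, a topoisomerase that untangles sister chromosomes, was 5.21, 5.49 and 5.08 with vehicle and 5.19, 5.06 and 5.24 with GW4064. Both pairs of groups overlapped, and the intervals ran from -0.42 to 0.40 for Mki67 and from -0.36 to 0.16 for Top2a. Cdk1 was 5.57, 5.67 and 6.00 with vehicle and 5.31, 5.95 and 5.72 with GW4064, which also overlapped. Bub1b, a checkpoint kinase of the spindle, was 4.20, 4.24 and 4.17 with vehicle and 4.0, 4.08 and 4.10 with GW4064, a difference of -0.15 without overlap and with an adjusted p of 0.396.

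In all, GW4064 and vehicle arrays of WT did not overlap for 2 of 39 genes higher with GW4064 (7.06% of all genes) and 7 lower (7.64%). The 7 were Mcm2, Mcm7, Bub1b, Cks2, Cdk2, Cdk4 and Ccnd2, and the 2 were Cdk6 and Cdkn1b. Cdk4, a kinase of the G1 phase, was 7.64, 7.64 and 7.72 with vehicle and 7.43, 7.55 and 7.41 with GW4064, a difference of -0.21 (adjusted p = 0.269).

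Myc, a transcription factor that promotes growth, was lower with GW4064 in the mean of both WT and liver Fxr KO, but with a wide spread in vehicle. In WT it was 7.83, 6.17 and 6.64 with vehicle and 6.21, 6.03 and 6.12 with GW4064, and in liver Fxr KO 7.50, 6.50 and 6.70 against 6.11, 5.77 and 6.01. The vehicle arrays thus spanned more than the GW4064 arrays did, and only in liver Fxr KO did the groups not overlap. The differences were -0.76 (SE 0.31, adjusted p = 0.311) in WT and -0.94 (SE 0.31, adjusted p = 0.809) in liver Fxr KO. In whole body Fxr KO it was 6.76, 6.89 and 6.37 with vehicle and 6.80, 6.95 and 6.61 with GW4064, a difference of 0.12. The difference between the WT and whole body effects was -0.88, with an adjusted p of 0.629. Without vehicle replicate 1 the difference in WT was -0.29.

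**Figure D2:**
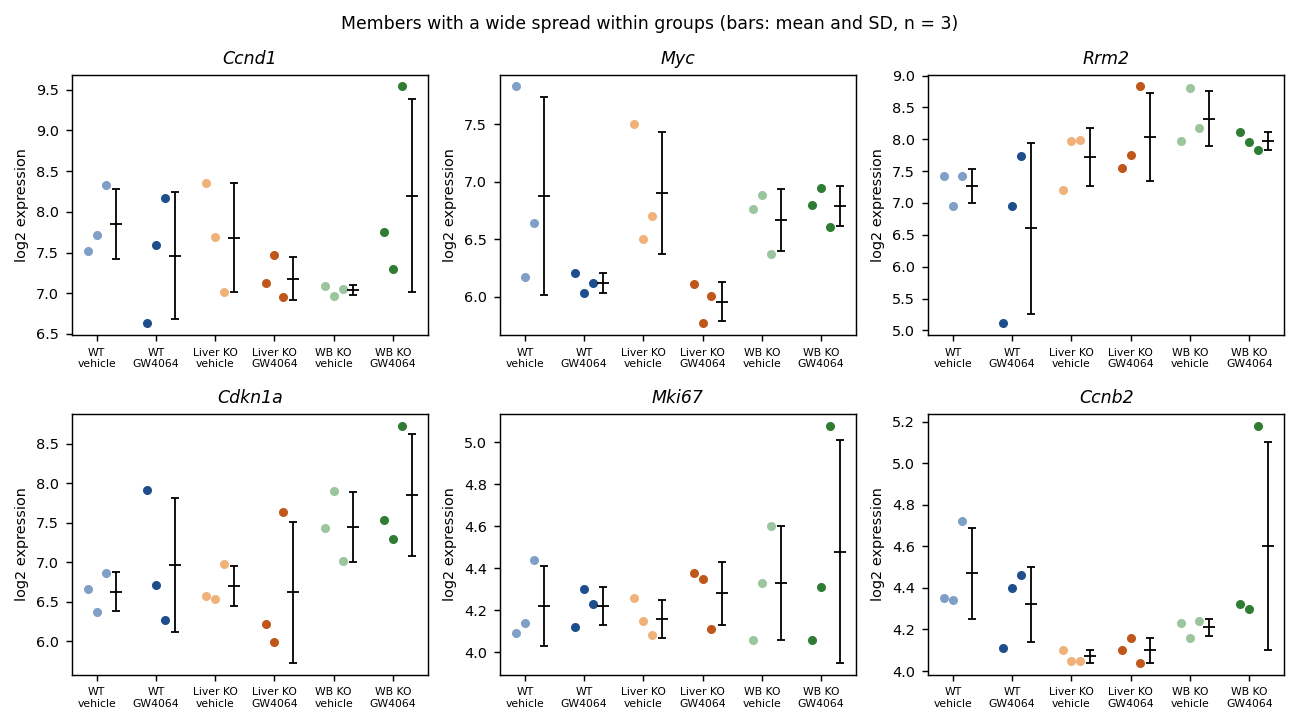
Log2 expression (vertical axes, which do not start at 0) of 6 genes in the 6 groups; points are single arrays in order of replicate, and bars are the mean and SD of 3 arrays. In the whole body Fxr KO group with GW4064, replicate 3 is the top point for Ccnd1 (9.54), Cdkn1a (8.73), Mki67 (5.08) and Ccnb2 (5.18).

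In the knockouts, GW4064 gave no gene past the threshold among the 39 or among all 12394 (0%). At an unadjusted p under 0.05 there were 6 of 39 in liver Fxr KO (5.02% of all genes) and 4 of 39 in whole body Fxr KO (6.25%). Averaged over the 3 genotypes, 0 of 39 passed (0.0242% of all genes, 0.00807% higher and 0.0161% lower), with 7 at an unadjusted p under 0.05 (9.59%). The medians in liver Fxr KO were 0.00 for replication, 0.03 for mitosis, -0.12 for G1 genes and -0.08 for inhibitors. In whole body Fxr KO they were -0.10, 0.08, 0.10 and 0.25, with 12 of 14 mitosis genes above 0, against 5685 of all 12394. GW4064 and vehicle arrays did not overlap for 1 gene higher and 3 lower in liver Fxr KO (6.11% and 6.13% of all genes), and for 4 higher and 1 lower in whole body Fxr KO (4.39% and 5.95%).

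GW4064 replicate 3 of whole body Fxr KO stood out among the cell cycle genes. It held the highest of all 18 values for 10 of the 39 genes, 5 of them mitosis genes, against 9.3% of all genes. Without it, 9 of 14 mitosis genes were above 0, with a median of 0.02, and the inhibitors had a median of -0.03. Ccnd1, the D-type cyclin that responds to growth signals in hepatocytes, was 7.09, 6.97 and 7.05 with vehicle and 7.75, 7.30 and 9.54 with GW4064, so the groups did not overlap and 1 array stood far above the rest. The difference was 1.16 (SE 0.47, adjusted p = 0.785), or 0.49 without that array. Ccnb2, a B-type cyclin, was 4.23, 4.16 and 4.24 with vehicle and 4.32, 4.30 and 5.18 with GW4064, a difference of 0.39 (adjusted p = 0.785), or 0.10 without that array. The median of 12 immediate early genes, which respond to stress and growth signals within minutes, was 0.73 above WT with vehicle on the same array, and its summed macrophage markers were 5127, against 2931 to 4350 with vehicle in that genotype. Whether these go with its cell cycle values was not tested.

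Neither interaction, the difference of the GW4064 effect between WT and a knockout, gave a gene past the threshold among the 39 or among all genes (0%). At an unadjusted p under 0.05 there were 2 of 39 for liver Fxr KO (7.46% of all genes) and 5 of 39 for whole body Fxr KO (8.21%). The precision was limited here, and the 95% interval was within 2 fold for 32 and 30 of the 39.

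**Figure D3:**
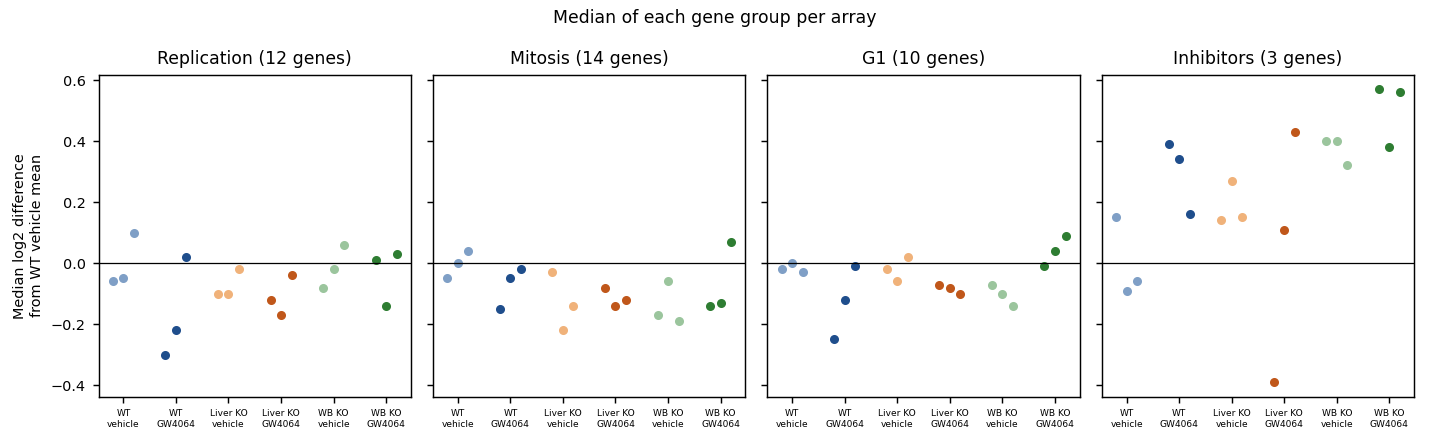
Median over each gene group of the log2 expression minus the mean of the WT vehicle arrays (vertical axis), for each of the 18 arrays in order of replicate within its group; the WT vehicle arrays are part of their own reference. Replication genes lie between -0.30 and 0.10, and the 6 arrays of whole body Fxr KO lie between 0.32 and 0.57 for the 3 inhibitors. In that range are also WT GW4064 replicates 1 and 2 (0.39 and 0.34) and liver Fxr KO GW4064 replicate 3 (0.43).

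The loss of FXR was compared in the vehicle groups. Cks2, one of a pair of small proteins that bind cyclin-dependent kinases, was lower in both knockouts, and the kinase inhibitor Cdkn1b was higher in whole body Fxr KO. For liver Fxr KO against WT, 1 of 39 genes passed, in the lower direction (0.492% of all genes lower, 0.879% in either direction). For whole body Fxr KO against WT, 1 passed higher (0.597%) and 1 lower (0.541%), out of 1.14% in either direction. Between the knockouts 0 passed (0.678% of all genes, 0.42% higher and 0.258% lower), with 4 at an unadjusted p under 0.05 (12.2%). These 3 comparisons share their vehicle groups, so they are not independent.

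Cks2 was 8.95, 8.95 and 8.96 in WT with vehicle. It was 8.05, 8.08 and 8.00 in liver Fxr KO and 8.25, 7.79 and 8.49 in whole body Fxr KO with vehicle. All 6 knockout values were below all 3 WT values, and the whole body values spread more than the liver values. The difference was -0.91 (SE 0.14, 95% interval -1.19 to -0.62, adjusted p = 0.00284) for liver Fxr KO, which is 1.88 fold lower. For whole body Fxr KO it was -0.77 (SE 0.14, 95% interval -1.06 to -0.49, adjusted p = 0.00936), which is 1.71 fold lower. The first passed in 29 of 29 alternative settings and the second in 28 of 29, missing with only the compared groups in the fit (adjusted p = 0.0615). The methods' t-test is not among these settings, and after adjustment it gave 0 members lower in whole body Fxr KO. Without whole body replicate 2 the second was -0.58. The probe set used has a name ending in _s_at, which marks probes that can match more than 1 transcript. The names of those used for Mcm2 and Mcm7 end so too. The second probe set of Cks2, without that mark, gave -0.90 (adjusted p = 0.0137) and -0.65 (adjusted p = 0.0818). With GW4064, Cks2 was 8.73, 8.56 and 8.65 in WT, 7.77, 7.82 and 7.67 in liver Fxr KO, and 8.54, 8.28 and 8.72 in whole body Fxr KO. GW4064 gave differences of -0.30, -0.29 and 0.33, none past the threshold. Macrophage markers had median differences from WT with vehicle of 0.24 in liver Fxr KO (7 of 8 above 0, 4 without overlap) and 0.30 in whole body Fxr KO (8 of 8, 2 without overlap), with 0 of 8 past the threshold in either. Summed on the linear scale they were 2760 to 3266 in WT, 3504 to 3861 in liver Fxr KO and 2931 to 4350 in whole body Fxr KO with vehicle, and their part in the Cks2 values was not tested.

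Cks1b, the paralog of Cks2, was not a member but stood among the other mitosis genes and was higher in liver Fxr KO. It was 8.56, 8.39 and 8.72 in WT with vehicle, 9.45, 9.87 and 9.37 in liver Fxr KO and 9.20, 8.85 and 9.31 in whole body Fxr KO, so neither knockout overlapped WT. The difference was 1.0 for liver Fxr KO (adjusted p = 0.0128) and 0.56 for whole body Fxr KO, which did not pass. The call for liver Fxr KO was lost with the mean of its probe sets (0.78, adjusted p = 0.056), without WT vehicle replicate 2 (0.92, adjusted p = 0.0675) and without liver Fxr KO vehicle replicate 2 (0.85, adjusted p = 0.0888). The second probe set gave 0.56 (adjusted p = 0.198).

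Cdkn1b, the inhibitor p27, was 7.84, 7.61 and 7.64 in WT with vehicle and 8.09, 8.10 and 8.02 in whole body Fxr KO, without overlap. The difference was 0.37 (SE 0.08, 95% interval 0.20 to 0.55, adjusted p = 0.0385), which is 1.3 fold higher. In liver Fxr KO it was 7.84, 7.97 and 7.84, a difference of 0.19 that met the WT range at 7.84 and did not pass. With GW4064, Cdkn1b was 7.87, 8.08 and 7.97 in WT and 8.01, 7.98 and 8.13 in liver Fxr KO. In whole body Fxr KO with GW4064 it was 8.01, 8.07 and 7.88. All these GW4064 values lay above the WT vehicle values, so a higher level was not particular to whole body Fxr KO. The test of any difference among the 6 groups did not pass for Cdkn1b (adjusted p = 0.0629). The whole body call was weak, and held in 17 of 29 alternative settings. It was lost with only the compared groups in the fit (adjusted p = 0.105), with the replicate number as a block (0.0534), with the mean of the probe sets (a difference of 0.06), and when 1 of 9 single arrays was left out (adjusted p from 0.0503 to 0.151). These were WT vehicle replicates 2 and 3, liver Fxr KO vehicle replicates 1 and 3, liver Fxr KO GW4064 replicates 1 and 2, and all 3 replicates of whole body Fxr KO with vehicle. The second, dimmer probe set, with a mean of 3.91, gave -0.25, which did not pass (adjusted p = 0.277). Against WT, stellate markers had a median difference of 0.44 in whole body Fxr KO (7 of 8 above 0), endothelial markers 0.35 (8 of 8) and macrophage markers 0.30 (8 of 8), of which only the stellate marker Pdgfrb passed (0.72, adjusted p = 0.0423). Their part in the Cdkn1b value was not tested.

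**Figure D4:**
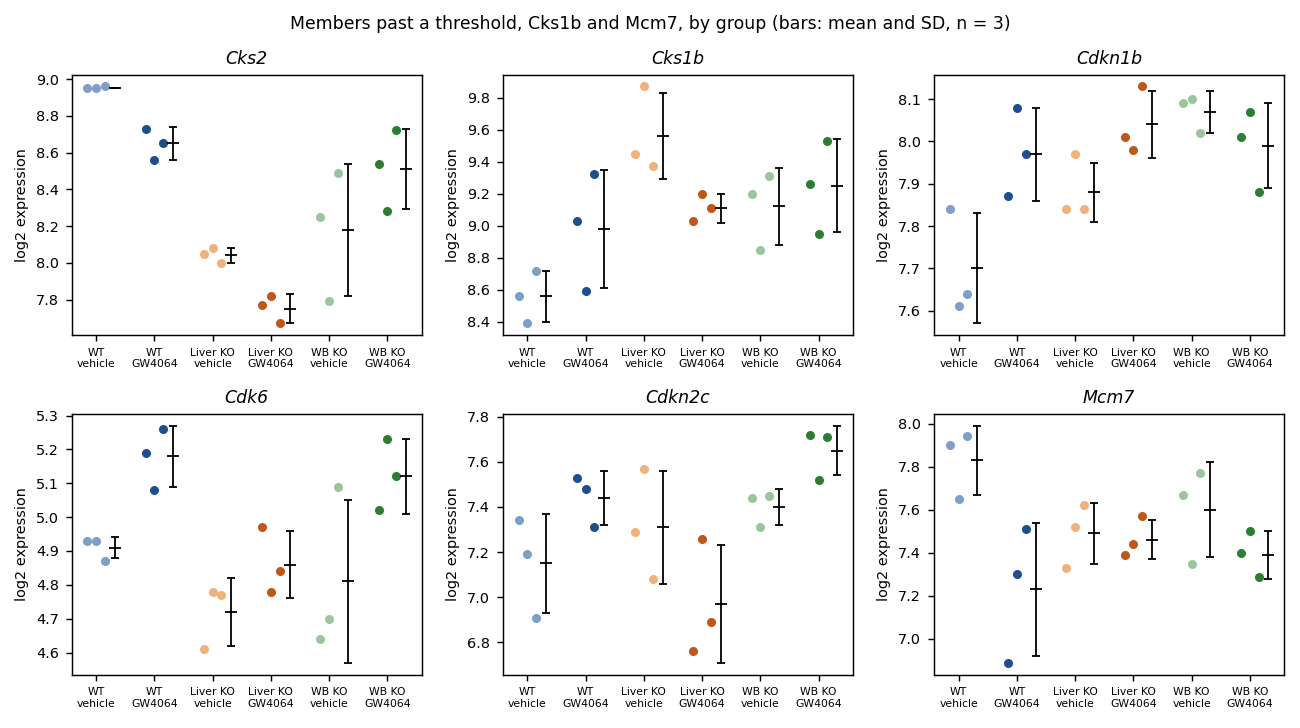
Log2 expression (vertical axes, which do not start at 0) of Cks2, Cks1b, Cdkn1b, Cdk6, Cdkn2c and Mcm7 in the 6 groups; points are single arrays in order of replicate, and bars are the mean and SD of 3 arrays. Cks2 lies at 8.95 to 8.96 in WT with vehicle and at or below 8.08 in all 6 liver Fxr KO arrays.

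Other members differed between the vehicle groups without passing. Liver Fxr KO arrays did not overlap WT for 2 genes higher (Cdt1 and Bub1b, against 9.8% of all genes) and 5 lower (Cdc6, Mcm7, Ccnb2, Cks2 and Cdk6, against 10.5%). Whole body Fxr KO arrays did not overlap WT for 3 genes higher (Rrm2, Cdkn1a and Cdkn1b, against 9.63%) and 8 lower (Cdc6, Cdk1, Ccnb2, Cdc20, Cks2, Ccnd1, Ccnd2 and Cdc25a, against 10%). At an unadjusted p under 0.05 there were 5 of 39 for liver Fxr KO (12.6% of all genes) and 6 of 39 for whole body Fxr KO (13.3%). Cdc6 was 3.54, 3.60 and 3.42 in liver Fxr KO and 3.55, 3.54 and 3.61 in whole body Fxr KO with vehicle, just below WT in both. Mki67 was 4.26, 4.15 and 4.08 in liver Fxr KO and 4.06, 4.33 and 4.60 in whole body Fxr KO with vehicle, which overlapped WT in both. The mitosis genes had medians of -0.15 and -0.12 against WT, with 11 of 14 below 0 in each, and both share the WT arrays.

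Ccnb2 was 4.35, 4.34 and 4.72 in WT with vehicle, 4.10, 4.05 and 4.05 in liver Fxr KO and 4.23, 4.16 and 4.24 in whole body Fxr KO. The differences from WT were -0.40 (adjusted p = 0.338) and -0.26 (adjusted p = 0.559), and the first passed only when both GW4064 arrays that stood apart were left out (adjusted p = 0.0319). Rrm2 was 7.20, 7.97 and 7.99 in liver Fxr KO with vehicle and 7.98, 8.80 and 8.17 in whole body Fxr KO, above the 3 WT values given above in the second case only. The whole body difference was 1.05 (SE 0.47, adjusted p = 0.35), and the other probe sets gave 1.11 and 0.82. Ccnd1 was 7.52, 7.71 and 8.33 in WT and 8.35, 7.69 and 7.01 in liver Fxr KO with vehicle, which overlapped. All 3 whole body values given above lay below the WT values, a difference of -0.82 (SE 0.47, adjusted p = 0.484), with -0.80 and -0.84 from the other probe sets.

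Cdkn1a, the inhibitor p21, which p53 induces after DNA damage, was 6.66, 6.37 and 6.86 in WT with vehicle, 6.58, 6.53 and 6.98 in liver Fxr KO and 7.43, 7.90 and 7.02 in whole body Fxr KO. The whole body values were above all values of the other vehicle groups, with a difference from WT of 0.82 (SE 0.45, adjusted p = 0.459), and a second, dimmer probe set gave 0.17. With GW4064 it was 7.92, 6.71 and 6.27 in WT, 6.22, 5.99 and 7.64 in liver Fxr KO and 7.53, 7.29 and 8.73 in whole body Fxr KO, so 1 array was far above the others in each. The 3 inhibitors together had medians of 0.17 against WT in liver Fxr KO and 0.37 in whole body Fxr KO. With the probe sets used, all 3 were above 0 in both. The second probe sets gave -0.09 for Cdkn1a and -0.13 for Cdkn1b in liver Fxr KO, and -0.25 for Cdkn1b in whole body Fxr KO.

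Cdc25a, a phosphatase that activates the G1 kinases, had the smallest p of the members between the knockouts. It was 5.81, 5.68 and 5.75 in WT with vehicle, 5.72, 6.13 and 5.82 in liver Fxr KO and 5.20, 5.51 and 5.61 in whole body Fxr KO. The whole body values were below those of both other groups, with a difference of -0.45 from liver Fxr KO (adjusted p = 0.0925, and 0.0391 to 0.315 over 29 alternative settings, the lowest with array weights). The second probe set gave -0.14 (adjusted p = 0.687). Pcna was 9.13, 9.51 and 9.34 in liver Fxr KO with vehicle and 9.48, 9.62 and 9.70 in whole body Fxr KO, which overlapped, and gave 0.28 (adjusted p = 0.318). Whole body and liver Fxr KO arrays did not overlap for 4 genes higher in whole body Fxr KO (against 11% of all genes) and 2 lower (Bub1b and Cdc25a, against 10.4%).

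**Figure D5:**
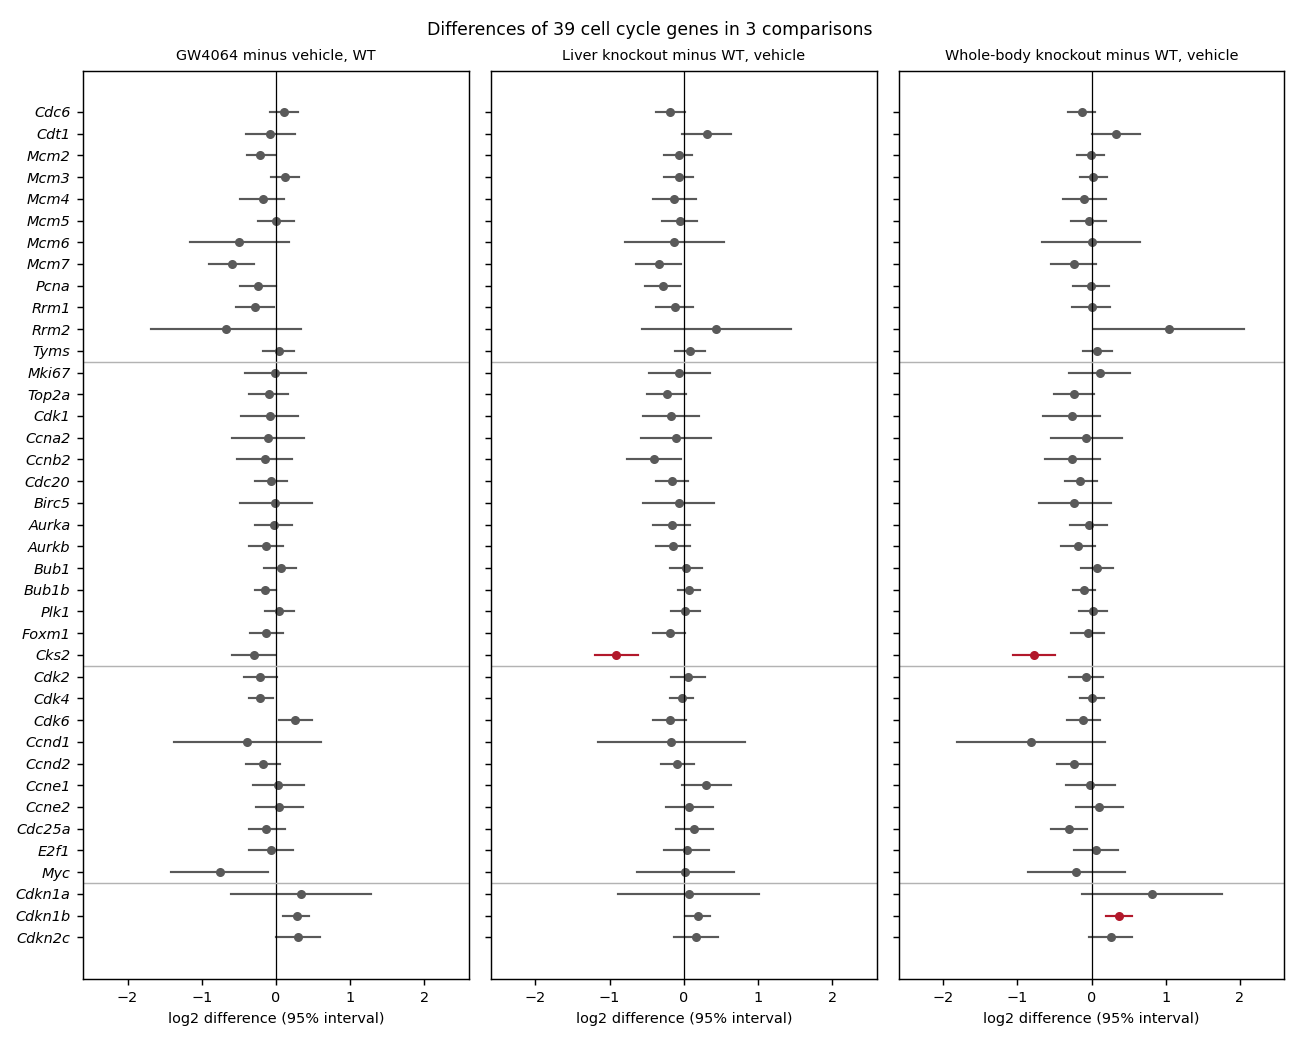
Log2 difference with its 95% interval (horizontal axis) for the 39 genes in GW4064 minus vehicle in WT, liver Fxr KO minus WT and whole body Fxr KO minus WT, both with vehicle; red marks an adjusted p under 0.05. The red points are Cks2 at -0.91 and -0.77 and Cdkn1b at 0.37.

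A test of any difference among the 6 groups passed for Cks2, Cdk6 and Cdkn2c, 3 of 39 genes, against 6.08% of all genes. At an unadjusted p under 0.05 there were 10 of 39, against 22.1%. For Cks2 the adjusted p was 0.00045, and it passed in 28 of 28 alternative settings. Cdk6, a kinase of the G1 phase, lay under the level of the filter on dim genes and had an adjusted p of 0.0469. It was 4.93, 4.93 and 4.87 in WT with vehicle, 5.19, 5.08 and 5.26 with GW4064, 4.64, 4.70 and 5.09 in whole body Fxr KO with vehicle and 5.02, 5.23 and 5.12 with GW4064. The GW4064 values were above the vehicle values in WT and overlapped them in whole body Fxr KO. In liver Fxr KO it was 4.61, 4.78 and 4.77 with vehicle and 4.97, 4.78 and 4.84 with GW4064, and the mean effect of GW4064 over the genotypes was 0.24 (adjusted p = 0.211, and 0.0459 without whole body vehicle replicate 3).

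Cdkn2c, the inhibitor p18, which acts on Cdk4 and Cdk6, had an adjusted p of 0.0486. It was 7.34, 7.19 and 6.91 in WT with vehicle, 7.53, 7.48 and 7.31 with GW4064, 7.44, 7.31 and 7.45 in whole body Fxr KO with vehicle and 7.72, 7.52 and 7.71 with GW4064. In liver Fxr KO it was 7.29, 7.57 and 7.08 with vehicle and 6.76, 7.26 and 6.89 with GW4064. The lowest group mean was thus that of liver Fxr KO with GW4064 and the highest that of whole body Fxr KO with GW4064, and those 2 groups did not overlap. Both calls lie at the threshold and rest on the full set of arrays. The call for Cdk6 held in 6 of 27 alternative settings and was lost without any 1 of 17 arrays, whole body vehicle replicate 3 being the exception. That for Cdkn2c held in 11 of 28 and was lost without any 1 of 13 arrays, all but WT vehicle replicate 1, WT GW4064 replicate 3, liver Fxr KO vehicle replicates 2 and 3 and liver Fxr KO GW4064 replicate 2.

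The remaining members passed no test with the probe sets used, to which the ranges given here apply. Among replication genes, Cdt1, Mcm3, Mcm4, Mcm5, Rrm1 and Tyms had differences from WT of -0.13 to 0.33 in the knockouts and from vehicle of -0.29 to 0.12 in WT. The second probe set of Rrm1, the large subunit of ribonucleotide reductase, gave -0.52 for GW4064 in WT (adjusted p = 0.192) and passed the test among the 6 groups (adjusted p = 0.0487). Mcm6 was wider, at 5.99, 6.29 and 6.89 in WT with vehicle and 5.56, 6.20 and 5.92 with GW4064, which overlapped. Among mitosis genes, the kinases Aurka, Aurkb, Bub1 and Plk1, the cyclin Ccna2, the ubiquitin ligase activator Cdc20, the survivin gene Birc5 and the transcription factor Foxm1 had differences of -0.23 to 0.08 in the same 3 comparisons. A dimmer probe set of Cdc20 gave -0.42 for GW4064 in WT. Against WT with vehicle that probe set gave -0.36 in liver Fxr KO and -0.39 in whole body Fxr KO, and none passed. Among G1 genes, Cdk2, Ccnd2, Ccne1, Ccne2 and E2f1 had differences of -0.23 to 0.30. Of the 39 genes, 17 had a mean above the level of the filter on dim genes (5.65), and 95% intervals within 1.5 fold were seen for 30 in GW4064 against vehicle in WT and for 29 in each knockout against WT.

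Other genes of the same pathways gave few calls. None of 40 further replication genes passed in a comparison between 2 groups, and Orc6 and Pole passed the test among the 6 groups (adjusted p = 0.0133 and 0.022). Orc6, a subunit of the origin recognition complex, was 5.78, 5.92 and 6.21 in WT with vehicle and 6.33, 6.36 and 6.48 in liver Fxr KO, without overlap, and 5.83, 5.91 and 5.91 in liver Fxr KO with GW4064. Pole, the catalytic subunit of a replicative polymerase, was 5.42, 5.31 and 5.49 in WT with vehicle and 4.83, 5.09 and 4.77 with GW4064, also without overlap. Of 40 further mitosis genes only Cks1b passed. Among 12 genes of the Rb and E2F pathway and 12 other brakes of the cycle, 0 passed in any comparison. Of 14 p53 targets, only Perp, a membrane protein of cell death and adhesion, passed the test among the groups (adjusted p = 0.00447), at 9.86 to 10.32 in WT with vehicle and 9.41 to 9.64 in whole body Fxr KO with GW4064.

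Mnt, a repressor that competes with Myc for its partner Max, and Egr1, an immediate early transcription factor, were higher in whole body than in liver Fxr KO with vehicle. Mnt was 7.56, 7.33 and 7.23 against 6.99, 6.86 and 6.68, a difference of 0.53 (adjusted p = 0.0494), and it was the 1 gene of 10 in the Myc network to pass. The second probe set of Mnt gave 0.18 (adjusted p = 0.537). Egr1 was 8.61, 7.93 and 8.32 against 6.15, 6.65 and 6.30, a difference of 1.92 (adjusted p = 0.0494), and it was the 1 of 12 immediate early genes. The groups did not overlap for either gene. Mnt passed in 7 of 29 alternative settings and Egr1 in 13 of 29, and each call was lost when any of the 6 arrays compared, or some of the others, was left out (without one of those 6, adjusted p from 0.094 to 0.181 for Mnt and from 0.103 to 0.194 for Egr1). Egr1 was 9.23, 7.52 and 7.61 in WT with vehicle, above the liver Fxr KO values as well. Ier2, another immediate early gene, passed the test among the 6 groups with Egr1 (adjusted p = 0.0366 and 0.0135).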

How the data were processed

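The authors normalized the arrays with RMA, whose version is not given in the sources used here, and deposited log2 expression per probe set (22690 probe sets). The methods name another array type, so genes were named from the annotation of the deposited platform, in which 20393 probe sets have 1 symbol, 691 several and 1606 none, and 20364 matched GRCm38.p6. For 4958 of 12394 genes, the probe set with the highest mean was used. Tests used limma 3.58.1 in R 4.3.3, with a mean for each of 6 groups and 12 residual degrees of freedom, two-sided, with Benjamini-Hochberg adjustment over all genes and a threshold of 0.05, in 9 comparisons and in 1 test across all groups. The steps were tested on simulated data. Array medians were 5.96 to 6.00, and the 3 arrays per group limit the precision. The labels number the replicates but do not tie them to litters or cages. In the main tests, a p-value sets a difference against the spread between livers within groups, pooled over the 6 groups and moderated over all genes. The members and lists were chosen with earlier results of these data known. Values per array are given for members past a threshold, for Mki67, Top2a, Cdk1, Ccnd1, Pcna, Mcm2, Cdkn1a and Myc, and for the 3 of each group with the smallest p among groups, and from the other lists for up to 4 past a threshold; Mcm6 was chosen after its values were seen. Figures were drawn with matplotlib 3.10.9.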

Additional observations from a re-analysis of the deposited data

How the results depend on the processing

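Cks2 in liver Fxr KO passed in all 29 alternatives. The second, dimmer probe set of Cdkn1b (mean 3.91) gave -0.25 in whole body Fxr KO and did not pass (adjusted p = 0.277), against the called 0.37. Deviations from the group means correlated at -0.207 to 0.339 between arrays of the same replicate number. Between GW4064 and vehicle they were all above 0 in liver Fxr KO (0.066 to 0.339) and whole body Fxr KO (0.095 to 0.22). Arrays of unlike numbers were not compared, so whether the numbers pair the arrays was not settled. With the numbers as a block Cdkn1b was lost (0 members higher in whole body Fxr KO). In that setting 1 gene passed for GW4064 in liver Fxr KO and 2 for the WT against whole body interaction. GW4064 in WT gave 24 genes, but 0 with only the compared groups, 11 with a trended and robust prior, 12 with the mean of probe sets, 2 without WT GW4064 replicate 1, 3 without both arrays that stood apart (chosen after seeing the data), and 65 by the methods' t-test (0 after Benjamini-Hochberg), with 1 member, Mcm7, lower by that test and 1 with every probe set on its own. In liver Fxr KO it gave 2, 7 (array weights), 1 and 2 (without 1 or both arrays) and 36 by the t-test, with 1 member, Myc, and in whole body Fxr KO 1 without both arrays and 11 by the t-test. The mean GW4064 effect gave 3 genes, 5 without dim genes or without both arrays, and 1 with every probe set or their mean. Liver Fxr KO against WT gave 109 genes, 217 with array weights, 218 without both arrays (2 members lower) and 1 by the adjusted t-test. Whole body Fxr KO against WT gave 141, 266 without both arrays and 5 by the adjusted t-test. There, with only the compared groups, 0 members passed either way. The t-test gave 2 higher (Rrm2 and Cdkn1a) and 2 lower (Cks2 and Ccnd1), and 0 and 0 after adjustment, and the mean of probe sets 0 higher. Between the knockouts 84 genes passed, 184 with only the compared groups, 53 with the prior, 260 with array weights (1 member lower), 134 without both arrays, and 166 and 0 by the t-test before and after adjustment. Members passing among the 6 groups were 5 with every probe set (with Mcm7 and Rrm1 by their second probe sets) and 1 without WT GW4064 replicate 1. Leaving out single arrays gave, for all genes, 1 to 268 for GW4064 in WT (268 without WT GW4064 replicate 3), 0 to 2 and 0 to 4 in the knockouts, 1 to 48 for the mean effect, 37 to 174 and 56 to 193 for the knockouts against WT, 3 to 102 between them (37 and 3 without liver Fxr KO vehicle replicate 2, 56 without whole body vehicle replicate 3), 0 to 50 and 0 to 22 for the interactions, and 531 to 985 among groups. For members it gave 1 to 4 among groups, 0 to 1 higher in whole body Fxr KO, 0 to 1 higher for the mean effect (Cdk6) and 0 to 1 lower for GW4064 in WT (Mcm7). The cause of these shifts was not tested.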
